A study of Mus musculus with 4 samples.

Results

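The 9 genes described here encode receptors and enzymes that set the cAMP or cGMP signal for lipolysis in fat cells: Adrb1, Adrb3, Adra2a, Adora1, Ptger3, Hcar2, Npr1, Adcy5 and Pde3b. They were chosen by symbol, with earlier results of these data known, and all 9 were found among the 24421 genes of the expression matrices. Their mRNA was measured by RNA-seq in whole epididymal adipose tissue, a visceral fat depot, of male C57BL/6J mice without any transgene. Ctrl mice started high-fat diet (HFD) at 10 weeks of age and stayed on it for 14 weeks. Weight-cycled mice, termed WC1, started HFD at 8 weeks of age and received it for 8 weeks, then standard diet for 2 weeks, then HFD for 6 more weeks, so that both groups had 14 weeks of HFD and reached 24 weeks of age. The comparison asks how a period of weight loss within HFD feeding relates to gene expression in obese fat, and there are 2 libraries per group.

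Lipolysis is the release of fatty acids from stored triglyceride. Noradrenaline acts on beta-adrenergic receptors, which activate adenylyl cyclase through the G protein Gs, and the resulting cAMP activates protein kinase A, which phosphorylates perilipin and hormone-sensitive lipase. Receptors coupled to Gi for adenosine, prostaglandin E2, hydroxybutyrate or, through alpha2 receptors, noradrenaline itself lower cAMP, and phosphodiesterase 3B, which insulin activates, degrades it. Natriuretic peptides reach the same lipases through cGMP.

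The libraries held between 61465029 and 90965297 reads, and 3 reads corresponded to between 0.0345 and 0.0492 CPM, the library-size-scaled read count, for counting error only. Of 14106 genes tested with limma on log2(CPM + 1), 10.2% rose and 7.71% fell in WC1 at an adjusted p under 0.05, which is what "called" means here. In the TPM matrix the median of all genes moved up by 0.12 and the balance changed to 14.6% higher and 4.13% lower, with 8 of the 9 genes still called higher. The labels do not state that the libraries of a group came from separate mice, so the p-values measure the spread between these libraries only. The tissue label was checked with markers. All 10 adipocyte markers were present, and their summed level was 9883 and 11063 CPM in Ctrl and 18005 and 23134 CPM in WC1. The summed level of 10 macrophage markers was 11918 and 10858 CPM in Ctrl and 6973 and 4863 CPM in WC1. In bulk tissue, fewer cells of a type and less RNA per cell cannot be told apart. Of 5 epididymis markers, Lcn5, Crisp1 and Lcn8 were at 0 in every library, and the sum of the 5 was at most 3.13 CPM.

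All 9 genes passed the filter on low values, and 8 of 9 were called higher in WC1, compared to 10.2% of all genes tested. The genes had been chosen with earlier results of these data known, so this contrast is a description and not independent evidence. None was called lower: limma gave 0 of 9 at an adjusted p under 0.05 (7.71% of all genes) and 0 of 9 at an unadjusted p under 0.05 (18.9%), and edgeR (7.14%) and DESeq2 (12.3%) also called 0 of 9 lower. With 9 genes, 0 is close to these shares. In the same 8 genes both WC1 libraries lay above both Ctrl libraries, compared to 32.7% of all genes tested. The median log2 fold change (WC1 minus Ctrl) was 0.85, compared to -0.02 over all genes. The increase was found in stimulatory and inhibitory receptors alike and in both the cAMP-forming and the cAMP-degrading enzyme, and the exception was Adra2a.

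**Figure D1:**
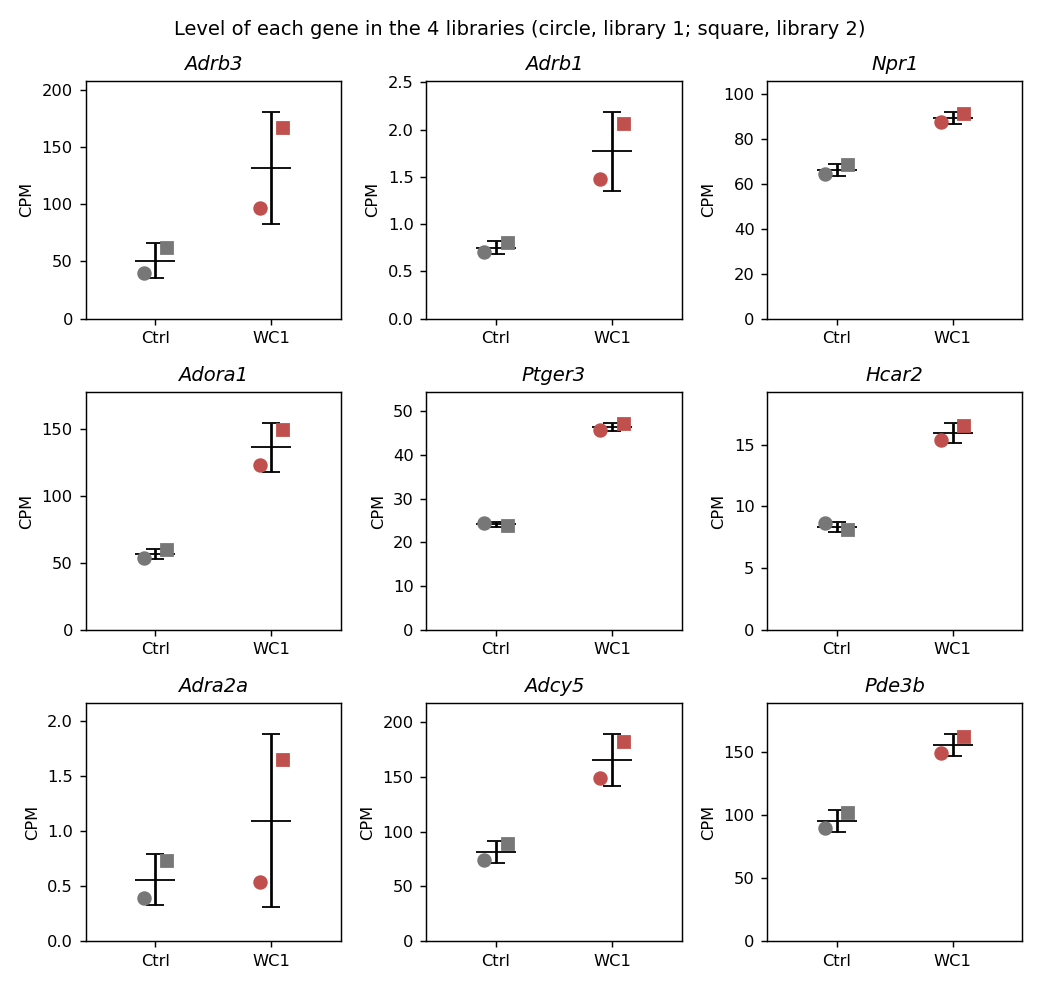
Level of each of the 9 genes in CPM (vertical axis, from 0, own scale per gene) in the Ctrl and WC1 libraries, with circles for library 1, squares for library 2, and bars for the mean and SD of 2 libraries. The groups do not overlap except for Adra2a, where WC1 1 lies below Ctrl 2, and the libraries of a group lie farthest apart for Adrb3 and Adra2a.

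Promoters were examined next, as a description of sequence only. Adrb3, Hcar2 and Pde3b, which were called higher, had no promoter entry. RefSeq promoter sequences (assembly GRCm38.p6, 250 bases before to 50 bases after a start site) were given for 6 of the 9 genes, Adrb1, Adra2a, Adora1, Ptger3, Npr1 and Adcy5, with a pair of start sites for Adora1. The 250 bases before the start are shown for Ptger3, the receptor with the most even values between libraries, and for Adcy5, the cyclase, in the direction of transcription and with each CG dinucleotide in capitals. Both windows lie on the plus strand, at chr3:157566626-157566875 and chr16:35154614-35154863.
Ptger3: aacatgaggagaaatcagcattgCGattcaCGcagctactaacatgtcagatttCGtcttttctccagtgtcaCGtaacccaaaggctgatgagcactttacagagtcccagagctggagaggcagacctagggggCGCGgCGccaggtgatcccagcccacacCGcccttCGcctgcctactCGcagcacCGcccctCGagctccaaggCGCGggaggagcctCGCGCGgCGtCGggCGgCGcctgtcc
Adcy5: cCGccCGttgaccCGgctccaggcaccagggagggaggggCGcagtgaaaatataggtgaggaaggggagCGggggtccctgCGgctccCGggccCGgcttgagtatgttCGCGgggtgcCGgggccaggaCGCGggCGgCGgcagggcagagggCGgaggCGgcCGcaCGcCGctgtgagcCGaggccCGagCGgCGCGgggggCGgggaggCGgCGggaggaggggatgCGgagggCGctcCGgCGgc
The Ptger3 window held 21 CG dinucleotides and the Adcy5 window 32, compared to a median of 6 over 32851 promoter windows of the same length. As many or more were found in 16.3% of all windows for Ptger3 and in 4.58% for Adcy5. The GC content of the 7 windows of these genes was between 62.0% and 78.0%, and their median was 67.6% compared to 52.4% over all promoters. Letters of known elements were searched on both strands of the whole windows. TGACGTCA, the cAMP response element, is present in 1.79% of all promoters, TTGCNNAA, a C/EBP element, in 10.8%, and the direct repeat bound by PPAR with RXR in 0.0396%, and none of the 7 windows held these letters. TATAAA, the TATA box, is present in 13.6% of all promoters and was found in 1 of the 7 windows, that of Adra2a, where it begins 29 bases before the start site. These matches describe the sequence and are not binding data.

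The beta-adrenergic receptors were examined first. Adrb3, the main beta receptor of mouse fat cells (GENCODE M21, GRCm38, chr8:27225776-27250616, minus strand), was present at 39.7 and 61.6 CPM in Ctrl 1 and 2 and at 96.8 and 166 CPM in WC1 1 and 2. Every WC1 library was above every Ctrl library, but the libraries of one group were far apart, with a log2 difference of 0.62 in Ctrl and 0.77 in WC1. The log2 fold change was 1.34 ± 0.32 (SE, 95% interval 0.52 to 2.17, n = 2 per group, limma adjusted p = 0.049). It was the largest of the 9 genes with all libraries and the least precise on the log2(CPM + 1) scale. On the log2(CPM + 0.25) scale the SE of Adra2a was larger, at 0.49 compared to 0.32 for Adrb3. Without Ctrl 1 and without WC1 2 the fold change of Adora1 was larger (1.18 against 1.03 and 1.11 against 0.95). This call was lost in 8 of 15 alternatives, including edgeR on the recovered reads, where the adjusted p was 0.051, while the direction was kept in all 15. Without 1 library the fold change ranged from 0.95 (without WC1 2) to 1.73 (without WC1 1), a spread of over 1.5 times. An annotated antisense transcript, Gm45470, covers 839 exonic bases of Adrb3, and since no source used here states the strand setting of the counting, its reads cannot be told apart from those of Adrb3.

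Adrb1, the beta receptor best known from the heart (chr19:56722199-56733113, plus strand), was low, with 48 and 70 reads in the Ctrl libraries against 90 and 130 in WC1. These correspond to 0.70 and 0.80 CPM in Ctrl and to 1.47 and 2.07 CPM in WC1, and the groups did not overlap. The log2 fold change was 0.65 ± 0.16 (SE, n = 2 per group, limma adjusted p = 0.049) on the log2(CPM + 1) scale, which understates the change of a gene near 1 CPM. On the log2(CPM + 0.25) scale it was 0.996, and the ratio of mean CPM was 2.35. The call was lost in 9 of 15 alternatives. Without WC1 2 the adjusted p was 0.0898 and the log2 fold change 0.50.

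Levels of different genes were compared in TPM, which accounts for transcript length. Adrb3 made up 56.4% and 65.1% of the summed TPM of 9 adrenergic receptors in Ctrl and 72.9% and 79.1% in WC1. Groups did not overlap in this share. Adrb1 stayed near 1% of the family, with 1.10% and 0.95% in Ctrl and 1.25% and 1.10% in WC1. Summed over the family, TPM was 48.1 and 65.3 in Ctrl and 99.0 and 162 in WC1, so the gain of the family was mainly in Adrb3.

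Among receptors coupled to Gi, Adora1, Ptger3 and Hcar2 rose and Adra2a did not pass the test. Adora1, the adenosine A1 receptor (chr1:134199223-134235431, minus strand), was at 53.8 and 59.4 CPM in Ctrl and 124 and 149 CPM in WC1. Its log2 fold change was 1.25 ± 0.11 (SE, 95% interval 0.95 to 1.54, limma adjusted p = 0.012). The neighbouring gene Mybph shares 1162 exonic bases with Adora1 on the opposite strand, and was itself at or below 0.131 CPM in every library. Ptger3, the EP3 receptor for prostaglandin E2 (chr3:157566892-157645888, plus strand), was at 24.5 and 23.8 CPM in Ctrl and 45.7 and 47.0 CPM in WC1. The libraries of a group differed by 0.04 on the log2 scale in both groups, whereas the groups differed by 0.91 ± 0.07 (SE, 95% interval 0.73 to 1.10, limma adjusted p = 0.0092). Ptger3 thus had the smallest adjusted p of the 9 genes.

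Hcar2, the receptor for beta-hydroxybutyrate and nicotinic acid (chr5:123863570-123865499, minus strand), was at 8.64 and 8.08 CPM in Ctrl and 15.4 and 16.5 CPM in WC1. The log2 fold change was 0.85 ± 0.10 (SE, limma adjusted p = 0.015), and the libraries of a group differed by 0.09 and 0.10. Its near relative Hcar1, the lactate receptor of adipocytes, was at 29.7 and 32.0 CPM in Ctrl and 49.6 and 52.7 CPM in WC1 and rose by 0.71 (adjusted p = 0.015). Hcar2 made up 32.9% and 29.9% of the summed TPM of the pair in Ctrl and 34.3% and 34.6% in WC1. Hcar2 and Ptger3 are also known in myeloid cells and mast cells. The summed level of 7 mast cell markers was 558 and 616 CPM in Ctrl and 83.8 and 65.9 CPM in WC1, with 6 of 7 called lower, and their part in the result was not tested.

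Adra2a, the alpha2A-adrenergic receptor (chr19:54044151-54048982, plus strand), was the least abundant of the 9 genes, with 27 and 63 reads in the Ctrl libraries against 33 and 104 in WC1. These correspond to 0.39 and 0.72 CPM in Ctrl and 0.54 and 1.65 CPM in WC1. WC1 1 lay below Ctrl 2, and only WC1 2 was above both Ctrl libraries. The log2 fold change was 0.38 ± 0.29 (SE, 95% interval -0.37 to 1.14, limma adjusted p = 0.39). Without WC1 1 it was 0.77 with an adjusted p of 0.027, and without WC1 2 it was -0.0092, so that 1 library decided the value. Neither an increase nor a decrease of Adra2a was detectable with these libraries.

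Single receptors of the adenosine and prostanoid families moved in different directions. Summed TPM was 33.7 and 36.7 in Ctrl against 67.9 and 85.3 in WC1 for the adenosine receptors. For the prostanoid receptors it was 69.0 and 67.3 against 85.4 and 82.8, so both TPM sums were higher in WC1 without overlap. In CPM the 8 other prostanoid receptors summed to 79.9 and 77.1 in Ctrl and 60.3 and 50.7 in WC1. With Ptger3 added, the CPM sums of the groups overlapped. Of the other adenosine receptors, the Gs-coupled Adora2a rose by 1.12 (adjusted p = 0.019), while Adora2b and Adora3 each fell by 0.64 (adjusted p = 0.028 and 0.038). Adora1 made up 57.1% and 59.1% of the summed TPM of the 4 adenosine receptors in Ctrl and 71.3% and 70.7% in WC1. Adora2b took 19.9% and 16.7% in Ctrl and 5.81% and 5.05% in WC1. Of 6 other prostanoid receptors tested, 2 were called lower and 4 were not called. Ptgir, the prostacyclin receptor, fell by 0.89 (adjusted p = 0.014) and Ptger2, the Gs-coupled EP2 receptor, by 0.47 (adjusted p = 0.049), whereas Ptger4 had a log2 fold change of -0.31 (adjusted p = 0.18). Ptger3 made up 33.6% and 33.8% of the summed TPM of 9 prostanoid receptors in Ctrl and 55.2% and 60.5% in WC1, the largest gain of a share among the 9 genes. Ptgir took 25.8% and 24.3% in Ctrl and 10.9% and 12.5% in WC1. Ptgir, Ptger2, Adora2b and Adora3 are known in myeloid or mast cells. The summed macrophage and mast cell markers were lower in WC1, with 4 of 10 and 6 of 7 called lower (7.71% of all genes). Summed neutrophil markers, also myeloid, were at 20.6 and 20.0 CPM in Ctrl and 23.9 and 30.0 CPM in WC1. The part of these cells in the decrease of the receptors was not tested.

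**Figure D2:**
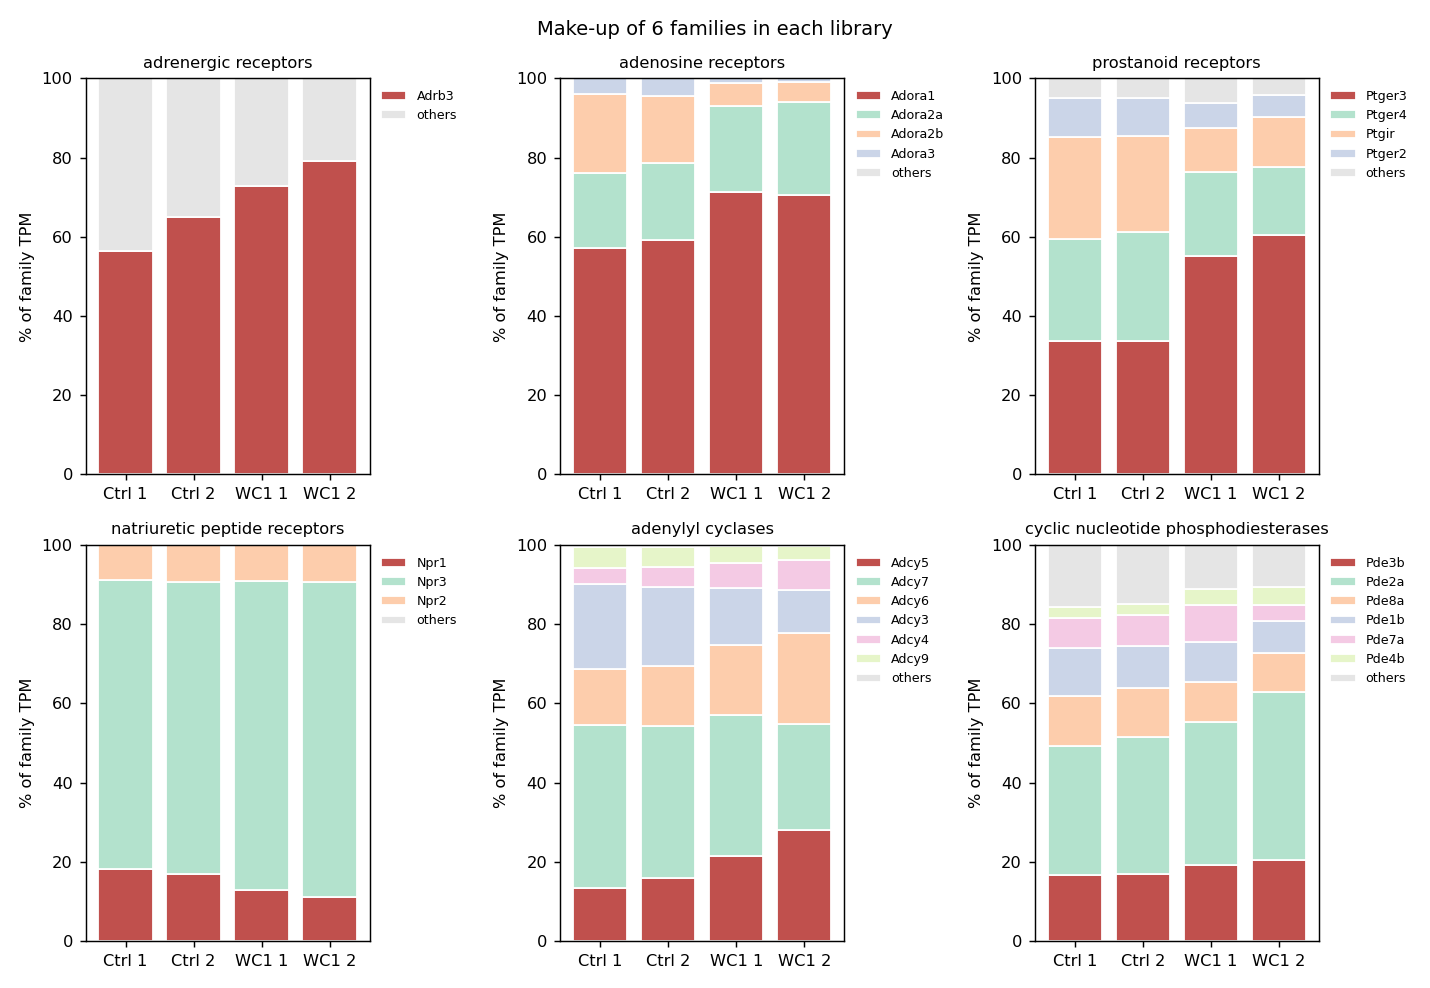
Share of each gene in the summed TPM of its family (vertical axis, percent, from 0 to 100) in each of the 4 libraries, for 6 families, with the gene of the set in red at the base, other genes of at least 4% in some library in pale colours (not separated for the adrenergic receptors) and the rest in grey. Adrb3, Adora1, Ptger3 and Adcy5 took a larger share in both WC1 libraries, Pde3b a slightly larger one, and Npr1 a smaller one.

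Npr1 is the guanylyl cyclase receptor for atrial and brain natriuretic peptides (chr3:90450591-90465866, minus strand). It was at 64.4 and 68.2 CPM in Ctrl and 87.4 and 91.2 CPM in WC1. The groups were apart and the libraries of a group close, but the increase was the smallest of the 8 called genes, with a log2 fold change of 0.42 ± 0.07 (SE, 95% interval 0.24 to 0.60, limma adjusted p = 0.025). The other receptors of the family rose more. Npr3, which binds and removes natriuretic peptides, was at 439 and 506 CPM in Ctrl and 895 and 1122 CPM in WC1 (log2 fold change 1.09, adjusted p = 0.020), and Npr2, the receptor for C-type natriuretic peptide, rose by 0.98 (adjusted p = 0.021). Npr1 therefore made up 18.2% and 16.9% of the family's TPM in Ctrl and 13.0% and 11.03% in WC1, and the ratio was not tested. The antisense transcript Gm16048 covers 559 exonic bases of Npr1, and its reads cannot be told apart here. Npr1 is also known in endothelium, and the summed level of 6 endothelial markers was 390 and 431 CPM in Ctrl and 764 and 990 CPM in WC1, with 4 of 6 called higher. Their part in the result was not tested.

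Both cAMP enzymes of the set rose. Adcy5, an adenylyl cyclase (chr16:35154877-35305738, plus strand), was at 74.5 and 88.6 CPM in Ctrl and 149 and 182 CPM in WC1. The log2 fold change was 1.01 ± 0.14 (SE, 95% interval 0.66 to 1.36, limma adjusted p = 0.019), compared to a difference between libraries of 0.25 in Ctrl and 0.29 in WC1. Pde3b, the phosphodiesterase through which insulin lowers cAMP (chr7:114415281-114539251, plus strand), was at 89.3 and 101 CPM in Ctrl and 149 and 161 CPM in WC1. It rose by 0.70 ± 0.09 (SE, 95% interval 0.46 to 0.94, limma adjusted p = 0.018). The groups did not overlap for either enzyme.

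Within each library, the ratio of Adcy5 to Pde3b in TPM was 0.87 and 0.91 in Ctrl and 1.04 and 1.18 in WC1. Groups were apart, and the mean log2 ratio was higher by 0.31 in WC1, compared to a pooled SD of 0.10 (exact permutation p = 0.333, the smallest that 2 libraries against 2 allow). The balance between beta receptors and the 4 Gi-coupled receptors, taken as the summed TPM of Adrb1 and Adrb3 over that of Adra2a, Adora1, Ptger3 and Hcar2, was 0.54 and 0.82 in Ctrl and 0.65 and 1.001 in WC1. These values overlapped, and the difference of 0.28 on the log2 scale was smaller than the pooled SD of 0.43 (exact permutation p = 0.667). The ratio of Adrb3 to Adra2a was 141 and 117 in Ctrl and 248 and 137 in WC1, and that of Adrb3 to Adrb1 was 51.1 and 68.2 in Ctrl and 58.5 and 72.1 in WC1. Both pairs overlapped between groups (exact permutation p = 0.667 each). Adjusted over the 4 ratios, every p was 0.667.

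Among other cyclases and phosphodiesterases, calls were few and in both directions. Of all genes tested, 10.2% were called higher and 7.71% lower. Of 6 other cyclases tested, 2 were called higher and 1 lower: Adcy4 rose by 0.85 (adjusted p = 0.019), Adcy6 rose by 0.73 (adjusted p = 0.022) and Adcy2 fell by 0.80 (adjusted p = 0.026). Adcy7, the cyclase with the highest mean TPM over the 4 libraries, had a log2 fold change of -0.10 (adjusted p = 0.71). Adcy5 made up 13.3% and 15.9% of the summed TPM of 10 cyclases in Ctrl and 21.4% and 28.0% in WC1, and Adcy7 made up 41.2% and 38.4% in Ctrl and 35.6% and 26.7% in WC1. Of 16 other phosphodiesterases tested, 3 were called higher and 1 lower, counts close to those shares. Pde4b, specific for cAMP, rose by 1.01 (adjusted p = 0.013), Pde9a, specific for cGMP, by 0.76 (adjusted p = 0.023) and Pde2a, which cGMP stimulates, by 0.68 (adjusted p = 0.032), whereas Pde8b fell by 1.25 (adjusted p = 0.042). Pde3b made up 16.6% and 17.0% of the summed TPM of 18 phosphodiesterases in Ctrl and 19.3% and 20.4% in WC1. Adora3, Adcy2 and Pde8b were named after their values were seen, as called decreases of their families.

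Levels of the 9 genes were then put in order by TPM. In Ctrl, Adrb3 (34.8 ± 10.9 TPM, SD, n = 2), Pde3b (34.6 ± 3.37), Npr1 (31.3 ± 1.48) and Adcy5 (31.0 ± 3.99) led, and each overlapped the next. Ptger3 (23.0 ± 0.34), Adora1 (20.5 ± 1.68) and Hcar2 (8.24 ± 0.34) followed, each apart from its neighbours. Adrb1 (0.58 ± 0.07) and Adra2a (0.28 ± 0.12) were far lower. In WC1, Adrb3 led with 100 ± 39.5 TPM (SD, n = 2), and Adcy5 (69.4 ± 11.4), Pde3b (62.3 ± 4.84), Adora1 (54.3 ± 8.43), Ptger3 (48.7 ± 2.09) and Npr1 (46.5 ± 2.45) followed with each overlapping the next. Hcar2 (17.3 ± 1.28), Adrb1 (1.505 ± 0.38) and Adra2a (0.61 ± 0.46) again came last. Adora1 thus stood below Npr1 in both Ctrl libraries and above it in both WC1 libraries, at 19.3 and 21.7 TPM against 30.3 and 32.4 in Ctrl and at 48.4 and 60.3 TPM against 44.8 and 48.3 in WC1.

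Values of the 9 genes were then set beside the adipocyte markers, of which 7 of 10 were called higher. In 6 of the 9 genes the libraries had the same order as the summed adipocyte markers, with Ctrl 1 lowest, then Ctrl 2, WC1 1 and WC1 2, compared to 16.2% of all genes tested. This order needs both WC1 libraries above both Ctrl libraries, which 8 of the 9 genes had, so it largely repeats that result. Of all genes tested, 4617 lay that way, and 2291 of them had the full order. The summed endothelial markers had that order too. When log2 values were taken relative to the mean of the 10 adipocyte markers in the same library, limma called 0 of the 9 genes higher and 0 lower, with 0 at an unadjusted p under 0.05. The spread of the marker mean between libraries enters every gene here. The SEs of the 9 genes were between 0.37 and 0.41, compared to 0.07 to 0.32 on the main scale. The lack of calls therefore does not show that levels relative to the markers were equal. On this scale the median of all genes moved down by 1.08, and 0.0992% of all genes were called higher and 80.1% lower. With a pseudocount of 0.25, chosen after the data were seen because 1 CPM hides the ratios of Adrb1 and Adra2a, limma again called 0 of 9 in either direction, with 0 at an unadjusted p under 0.05, compared to 0.227% of all genes called higher and 76.4% lower. The count tools were not run on this scale.

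Relative to the markers and with that pseudocount, the difference between groups was 0.27 for Adrb3, 0.17 for Adora1, -0.07 for Adcy5, -0.09 for Adrb1, -0.15 for Ptger3, -0.18 for Hcar2, -0.38 for Pde3b, -0.46 for Adra2a and -0.66 for Npr1. The groups overlapped in 7 of 9 genes and WC1 was lower without overlap in 2, Npr1 and Pde3b, whereas on this scale 92.2% of all genes tested were lower without overlap and 1.26% higher. Relative to the marker mean, Npr1 was at -1.90 and -2.07 log2 units in Ctrl and -2.41 and -2.88 in WC1. Adrb3 was at -2.59 and -2.22 in Ctrl and -2.26 and -2.01 in WC1, where Ctrl 2 and WC1 1 crossed. The 95% interval for Adrb3 on this scale was -0.54 to 1.07.

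**Figure D3:**
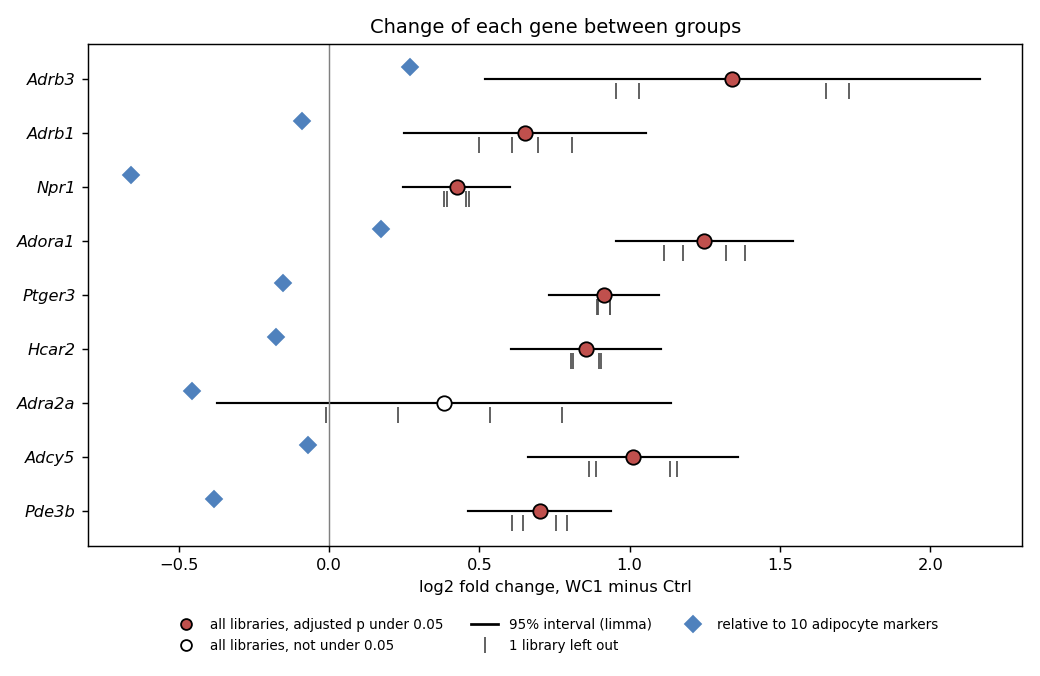
Change of each gene between WC1 and Ctrl (horizontal axis, log2 fold change), with circles for the estimate from all 4 libraries on the log2(CPM + 1) scale, black lines for its 95% interval, ticks for the estimates with 1 library left out and diamonds for the estimate relative to the adipocyte markers with a pseudocount of 0.25. The circles lie between 0.38 and 1.34, the interval of Adra2a alone crosses 0, and the diamonds lie between -0.66 and 0.27.

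The calls also rested on the number of libraries. Without Ctrl 1 limma called 0 of the 9 genes, with 7 of 9 higher at an unadjusted p under 0.05, and without Ctrl 2 it called 0, with 8 of 9 higher at an unadjusted p under 0.05. In the same fits 10.7% and 12.9% of all genes were higher at an unadjusted p under 0.05, and 0.0142% and 0.0425% were called higher. Without WC1 1 it called 9 of 9 higher (17.2% of all genes) and without WC1 2 it called 7 of 9 (10.1%). With all libraries, edgeR called 7 of 9 higher (10.5% of all genes) and DESeq2 8 of 9 (15.1%), and a block for the library number left 8 of 9 (12.5%). Lower calls took 7.14%, 12.3% and 10.6% of all genes in these fits and included 0 of the 9. With a pseudocount of 0.25, limma called 8 of 9 higher (10.3% of all genes), and with a pseudocount of 4 it called 6 (9.97%). It called 6 without a filter (4.35%), 7 with the filter met in 1 library (9.93%) and 6 with median-of-ratios scaling (10.4%). The fold changes moved little for Ptger3 (0.89 to 0.94 with 1 library left out) and Npr1 (0.38 to 0.46) and most for Adrb3 and Adra2a.

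Companion genes of the pathway were taken from lists. Of 93 companion genes 83 were tested, 31 were called higher, 9 lower and 43 were not called, with a median log2 fold change of 0.18, compared to 0.85 over the 9 genes. Among other receptors that act on cAMP in fat cells, 7 of 9 were called higher and 2 were not called. They include Gipr, the receptor for the incretin GIP (1.21, adjusted p = 0.020), Sucnr1, the Gi-coupled succinate receptor (1.18, adjusted p = 0.022), and Tshr, the thyrotropin receptor (1.13, adjusted p = 0.028). Adra1d, an alpha1 receptor that signals through calcium, rose by 1.053 (adjusted p = 0.019).

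Of 13 G proteins and receptor regulators, 2 were called higher and 1 lower, close to the 10.2% and 7.71% of all genes. Gnas, which encodes the Gs alpha subunit, was at 695 and 750 CPM in Ctrl and 784 and 802 CPM in WC1 (log2 fold change 0.13, adjusted p = 0.38). Gnai1, a Gi alpha subunit, was at 90.2 and 116 CPM in Ctrl and 178 and 223 CPM in WC1 and rose by 0.96 (adjusted p = 0.027). Gnao1, the Go alpha subunit, rose by 0.58 (adjusted p = 0.024). Gnai2 was at 630 and 645 CPM in Ctrl and 602 and 550 CPM in WC1 (log2 fold change -0.15, adjusted p = 0.32). Gnai3 was at 154 and 143 CPM in Ctrl and 132 and 119 CPM in WC1 (-0.24, limma adjusted p = 0.11). Gnai2 and Gnai3 were named after their values were seen, and the difference between the Gi alpha subunits was not tested.

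Downstream, 3 of 9 tested genes of the list of protein kinases A and G and soluble guanylyl cyclase were called higher. Prkar2b, the regulatory subunit of protein kinase A typical of adipocytes, was at 307 and 333 CPM in Ctrl and 531 and 645 CPM in WC1 (0.87, adjusted p = 0.020), and Gucy1a3, a subunit of soluble guanylyl cyclase, rose by 0.88 (adjusted p = 0.029). The third was Gucy1b3, the other cyclase subunit (0.41, adjusted p = 0.043), and Prkaca, a catalytic subunit of protein kinase A, did not pass the test (0.32, adjusted p = 0.052). Prkacb, another catalytic subunit, had a log2 fold change of -0.38 and did not pass either (limma adjusted p = 0.067). Gucy1b3, Prkaca and Prkacb were named after their values were seen. All 6 lipase and droplet genes were called higher. Mgll, monoglyceride lipase, rose by 1.12 (adjusted p = 0.019), Plin1, the perilipin that protein kinase A phosphorylates, by 1.03 (adjusted p = 0.026), and Pnpla2, adipose triglyceride lipase, by 0.70 (adjusted p = 0.044). Of 8 genes of the insulin arm that activates Pde3b, 3 were called higher and 1 lower. Irs1 rose by 0.85 (adjusted p = 0.013) and Irs2 by 0.68 (adjusted p = 0.020), whereas Akt1 fell by 0.40 (adjusted p = 0.037). Akt2, named after its values were seen, rose by 0.42 (limma adjusted p = 0.038).

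**Figure D4:**
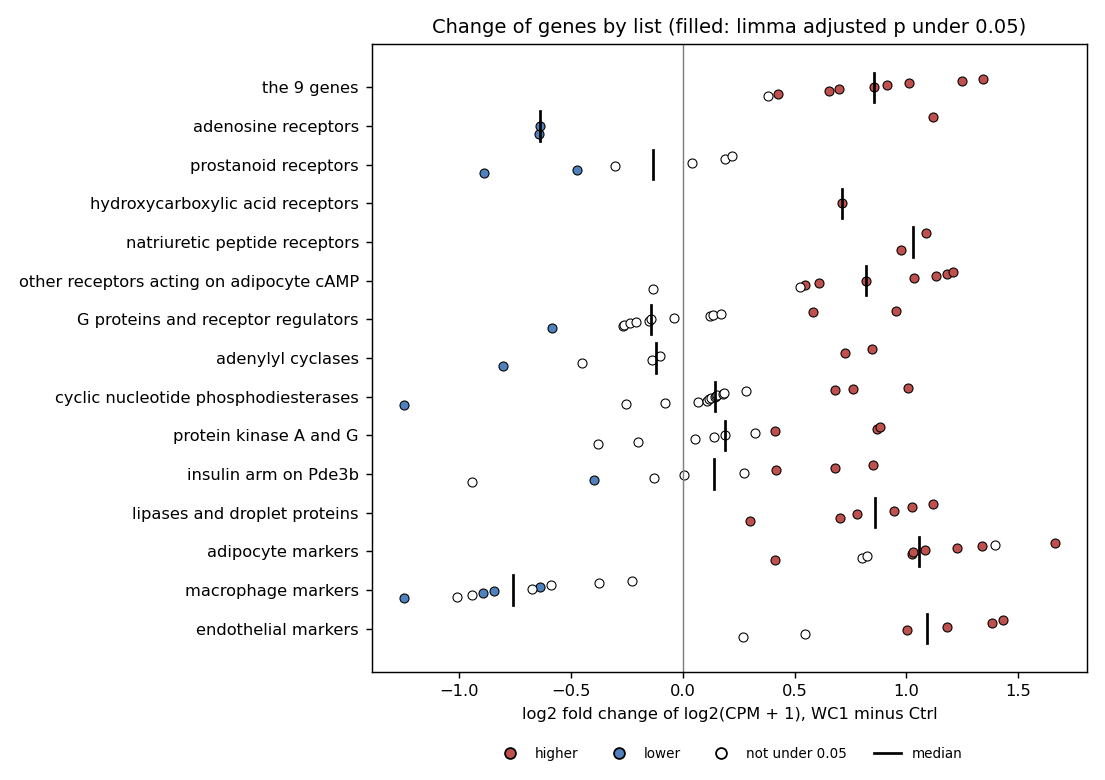
Log2 fold change of log2(CPM + 1) (horizontal axis, WC1 minus Ctrl) of each tested gene, in rows by list (adrenergic companions not drawn), with red for genes called higher, blue for genes called lower, white for genes not called and a black line for the median of the list. The 9 genes and the lipase list lie to the right of 0, as do the adipocyte and endothelial markers, whereas the adenosine, prostanoid, G protein and cyclase lists spread to both sides and the macrophage markers lie to the left.

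Genes whose pattern was most like that of Adrb3 were sought over the 4 libraries, by the largest difference in log2(CPM + 1) centred on the mean of the gene. The closest was Mogat2, a monoacylglycerol acyltransferase, at 3.33 and 5.45 CPM in Ctrl and 9.83 and 18.1 CPM in WC1, with a largest difference of 0.08. Car3, the carbonic anhydrase abundant in adipocytes, followed at 1222 and 1864 CPM in Ctrl and 3213 and 5576 CPM in WC1 (0.08). Gja5, a gap junction protein of endothelium, was at 3.70 and 6.17 CPM in Ctrl and 11.05 and 17.2 CPM in WC1 (0.09). With 4 libraries, likeness of this kind describes these libraries only.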

How the data were processed

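Directional RNA-seq libraries had been made from poly(A) RNA. The sources used here name fastp, HISAT2, StringTie and mouse build mm10 among the submitters' processing notes. The authors deposited a matrix named CPM, a signal proportional to reads whose columns summed to between 97.6% and 105% of those of plain CPM, so the library sizes had been rescaled. All values (100% within 0.01 read) were whole multiples of 1 read, which gave read counts. The authors also deposited TPM, corrected for transcript length. 6289 genes were at 0 in every library.

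The test took the 14106 genes that reached 0.5 CPM in 2 or more of 4 libraries. The groups were compared with limma 3.58.1 (R 4.3.3) on log2(CPM + 1), with two-sided p-values adjusted by Benjamini-Hochberg across these genes (threshold 0.05). Recovered reads were also tested with edgeR 4.0.16 and DESeq2 1.42.0. Errors of means are SDs of 2 libraries. No library was a copy of another, as the chi-square between libraries of a group was 33.9 (Ctrl) and 83.7 (WC1) for each degree of freedom. Positions and overlaps were taken from GENCODE M21 (GRCm38, equivalent to mm10) by symbol, and promoters from RefSeq. Protein sequences were not used here. In simulated libraries with 200 of 14106 genes changed in WC1 against Ctrl, limma recovered 163 (94% of genes changed 4-fold and 69% of genes changed 2-fold) and made 26 false calls, edgeR recovered 163 and made 30, and DESeq2 recovered 171 and made 54. In the data limma called 1443 genes higher and 1088 lower, far more than were changed in the simulation, so these rates need not hold there.

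The 9 genes and the lists were chosen with earlier results of these data known. From each companion list the text names the 2 genes with the smallest p and the one with the highest mean TPM, and says where others are named. A gene that this rule selects is not reported here. The alternatives were other pseudocounts and filters, the TPM matrix, median-of-ratios scaling, values relative to adipocyte markers, both count tools, the replicate block and leaving out each library.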

Additional observations from a re-analysis of the deposited data

How the results depend on the processing

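The number of the 9 genes called higher was 8 and lay between 6 and 8 in the settings that kept all libraries and the scale, but fell to 0 relative to adipocyte markers with either pseudocount, and ranged from 0 to 9 with 1 library left out. Without a Ctrl library hardly any of all genes were called (2 and 6 higher), and the cause was not tested. Of the companion genes, 31 were called higher and 9 lower. Without a filter these counts were 17 and 4, in TPM 5 were lower, relative to adipocyte markers 0 were higher and 48 lower (44 with a pseudocount of 0.25), and with 1 library left out the counts ranged from 0 to 35 higher and from 0 to 20 lower. The share of all genes called lower also rose without WC1 1 and fell without either Ctrl library. The range of lower calls therefore does not set the companion genes apart from all genes. The median log2 fold change of the 9 genes was 0.89 without Ctrl 1 and 0.81 without Ctrl 2. The TPM matrix moved the median of all genes up by 0.12.

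Relative to adipocyte markers at a pseudocount of 1, the log2 fold changes turned negative for Adrb1 (-0.43), Adra2a (-0.70), Ptger3 (-0.17), Hcar2 (-0.23), Npr1 (-0.66), Adcy5 (-0.0703) and Pde3b (-0.38). At a pseudocount of 0.25 they were -0.0916, -0.46, -0.15, -0.18, -0.66, -0.0704 and -0.38 in the same order. Adra2a turned to -0.0092 without WC1 2 and was called without WC1 1 (0.77). The calls of Adora1, Ptger3, Hcar2, Npr1, Adcy5 and Pde3b each held in 11 of 15 alternatives and were lost in the others, which were the marker scale and leaving out a Ctrl library.

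With 1 added to TPM the change of the log2 ratio was 1.16 for Adrb3 to Adra2a and 0.81 for Adrb3 to Adrb1. With 1 library left out it ranged from 0.0962 (without WC1 1) to 0.954 (without WC1 2) for Adrb3 to Adra2a, from -0.0708 to 0.35 for Adrb3 to Adrb1 and from -0.0243 to 0.59 for the beta to the Gi-coupled receptors, and the change in the share of Adra2a among adrenergic receptors ranged from -0.186 to 0.0981 percentage points. In CPM the share of Adora1 changed by 7.51 points and that of Npr1 by -3.90 points. The cause of these moves was not tested.

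Both groups have libraries numbered 1 and 2, and the labels do not say what a number shares. The differences of library 2 from library 1 correlated with r = 0.19 over 14106 genes between the groups. With the replicate block, 8 of the 9 genes were called higher and 0 lower, with 32 companion genes higher and 10 lower. The adjusted p of Adrb3 was then 0.0049 and that of Adra2a 0.19. The smallest exact p of 0.333 and 2 libraries per group limit every statement here, and Adrb1 and Adra2a also rest on few reads, 27 to 130 per library.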
